A study of Mus musculus with 10 samples.

Results

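The homologous recombination and Fanconi repair genes described here are 40 genes chosen by name, of 48795 genes listed in the counts. They were sorted into 8 roles: the Fanconi anaemia core complex, the pair that it ubiquitinates, BRCA1 and BRCA2 with their partners, mediators of strand exchange, end resection, processing of joint DNA molecules, checkpoint kinases, and a mixed set from other repair pathways. RNA-seq was carried out on cultures of neural stem and progenitor cells (NSC/NPCs) from the subependymal zone (SEZ), the neurogenic region along the lateral ventricle, of mice aged 10 weeks. WT neurospheres (3 libraries) and neurospheres labelled p27KO (2 libraries) were proliferating at 3 DIV (days in vitro) with 20 ng/ml EGF and 10 ng/ml FGF. WT cells (3 libraries) and cells labelled p27KO (2 libraries) at 2 + 1 DIV had been plated for 2 DIV on Matrigel with FGF and then kept without mitogens, with 2% FBS, for 1 DIV (24 h). p27KO denotes loss of Cdkn1b, which encodes the CDK inhibitor p27. The comparisons asked how the genes changed between the 2 stages in each genotype, and whether that change depended on p27.

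Homologous recombination repairs a broken chromosome by copying the intact sister chromatid, so that it operates mainly in S and G2 phases. The broken ends are first resected to single strands, and with the help of BRCA2 and other mediators a single strand then invades the sister. The Fanconi pathway recognises crosslinks between the DNA strands at stalled replication forks, ubiquitinates FANCD2 and FANCI, and hands the break that follows to recombination. In the SEZ, NSC/NPCs divide before they give rise to neuroblasts and glia, and many genes of these pathways are known to be transcribed mainly in dividing cells.

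Promoters are printed for Bard1, Brip1 and Polq. Only these members passed the main test of whether the stage change depended on genotype (edgeR adjusted p under 0.05). Sequences are from RefSeq (GRCm38.p6) and run 5′ to 3′ on the strand of the gene, from 250 bases before to 50 bases after its annotated start. Capitals mark matches on either strand to 3 motifs of dividing-cell promoters: E2F sites (TTTCCCGC, TTTGGCGC, TTTCGCGC or TTTGCCGC), the CHR element (TTTGAA) and the CCAAT box (CCAAT). The motifs do not overlap each other in these promoters. The Bard1 promoter lies at chr1:71102923-71103222 on the minus strand, that of Brip1 at chr11:86201144-86201443 on the minus strand, and that of Polq at chr16:37011536-37011835 on the plus strand.
Bard1: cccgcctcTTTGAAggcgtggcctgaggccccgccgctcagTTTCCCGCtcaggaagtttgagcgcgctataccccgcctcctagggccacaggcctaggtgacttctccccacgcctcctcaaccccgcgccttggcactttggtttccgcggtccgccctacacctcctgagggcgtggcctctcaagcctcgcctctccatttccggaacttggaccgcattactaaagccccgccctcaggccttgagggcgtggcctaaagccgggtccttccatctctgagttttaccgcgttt
Brip1: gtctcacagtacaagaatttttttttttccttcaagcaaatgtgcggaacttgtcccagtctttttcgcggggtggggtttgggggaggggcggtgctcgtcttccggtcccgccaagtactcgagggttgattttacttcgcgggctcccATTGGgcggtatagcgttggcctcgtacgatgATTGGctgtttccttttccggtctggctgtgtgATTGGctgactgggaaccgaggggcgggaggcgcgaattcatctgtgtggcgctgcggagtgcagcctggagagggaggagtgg
Polq: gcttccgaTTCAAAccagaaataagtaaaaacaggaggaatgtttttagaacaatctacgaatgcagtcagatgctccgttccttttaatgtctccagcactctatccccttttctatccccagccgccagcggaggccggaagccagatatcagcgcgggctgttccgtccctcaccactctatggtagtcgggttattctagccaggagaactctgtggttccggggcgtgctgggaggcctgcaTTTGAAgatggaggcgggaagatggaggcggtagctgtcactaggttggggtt

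The Bard1 promoter held 1 E2F match and 1 CHR match, that of Brip1 3 CCAAT boxes read on the opposite strand, and that of Polq 2 CHR matches. Of the 40 genes, 32 had a promoter in the RefSeq table. Fancd2, Rad51d, Xrcc2, Rad54b, Rad50, Nbn, Rbbp8 and Exo1 are named only. An E2F match occurred in 6 of the 32 (18.8%), against 4.99% of the 9539 tested genes with a promoter. The share was 7.03% among the 3342 such genes that fell in WT and 2.6% among all 27025 genes in the RefSeq table. The E2F matches are shown in 28-base windows, with the match in capitals, because few members held one. Rad51c has 2 annotated starts, each with its own match. The windows come from the promoters at chr4:43010252-43010551 (Fancg), chr1:71102923-71103222 (Bard1), chr5:150522371-150522670 (Brca2), chr11:87404457-87404756 and chr11:87404905-87405204 (Rad51c), chr5:110839733-110840032 (Chek2) and chr17:87974800-87975099 (Msh6), with Brca2, Chek2 and Msh6 on the plus strand and the others on the minus strand.
Fancg: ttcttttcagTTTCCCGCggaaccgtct
Bard1: cgccgctcagTTTCCCGCtcaggaagtt
Brca2: ttaggccacaGCGGGAAAcagacacaca
Rad51c (downstream start): tttccagcgcTTTCGCGCctcttgctct
Rad51c (upstream start): ccccgcgaggGCGGGAAAagcaaggggt
Chek2: gggattagccGCGGGAAAccaagacgtc
Msh6: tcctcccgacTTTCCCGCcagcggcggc

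By stage change, an E2F match was present in 5 of the 26 with a promoter that fell (19.2%) and in 1 of the 6 other members with a promoter (16.7%). CCAAT boxes were found in 17 of the 32 members (53.1%), against 43.6% of tested genes and 41.1% of all genes in the RefSeq table. CHR matches were found in 4 of the 32 (12.5%), against 13.8% of tested genes and 20.2% of all genes in the RefSeq table. These are counts of letters in a fixed window and were not tested.

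Cdkn1b itself was measured first. It stood at 103, 104 and 113 CPM in WT neurospheres, 202, 208 and 204 CPM in WT cells at 2 + 1 DIV, 114 and 93.8 CPM in neurospheres labelled p27KO and 141 and 136 CPM in cells labelled p27KO at 2 + 1 DIV. Its counts were thus not lost in the libraries labelled p27KO, and a count per gene does not show whether the deleted part is covered. The free-text descriptions of these 4 libraries name WT cells, while their titles and genotype entries name p27KO, so they are called libraries labelled p27KO here. Xist, which is transcribed from the inactive X chromosome of females, was between 1.15 and 2.60 CPM in the 6 WT libraries and between 2269 and 3615 CPM in the 4 labelled p27KO, so that genotype and sex cannot be told apart. Totals ran from 19190068 to 25291674 estimated counts per library. Levels are given in CPM, with each library's size scaled by TMM. Nes, a progenitor marker, fell between stages in both genotypes, and Gfap and Aqp4 (astrocytes) and Dcx (neuroblasts) were higher at 2 + 1 DIV in every library. Microglial markers summed to at most 0.671 CPM. The study's methods speak of biological replicates, but not of whether they were separate animals or separate cultures, so the p-values measure the spread between these libraries.

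In WT, 33 of the 39 members tested fell between neurospheres and 2 + 1 DIV and none rose (edgeR quasi-likelihood test, adjusted p under 0.05). A gene was tested where at least 7 of the 10 libraries held 1 CPM, and Rad51b did not pass this filter. Of all 12859 genes tested, 33.9% fell and 33.5% rose. The median log2 fold change was -1.76 over the members and -0.002 over all genes. Falls ran up to -4.83 for Exo1, which was left at 3.52% of its neurosphere level, and 26 members fell to below 50% and 18 to below 25%. Summed over the 40 members, the level was 1268, 1348 and 1409 CPM in WT neurospheres and 487.7, 513.2 and 518.3 CPM at 2 + 1 DIV. In the libraries labelled p27KO, 32 of 39 members fell, against 30.2% of all genes, and none rose, against 27.5%. Their median log2 fold change was -1.38, against -0.029 over all genes, and the summed level was 1518 and 1405 CPM in neurospheres and 657.4 and 642.4 CPM at 2 + 1 DIV. The 32 members that fell in the libraries labelled p27KO all fell in WT too, and Fancc passed in WT and not in them. No member rose at an unadjusted p under 0.05 either, in edgeR or in DESeq2, in either genotype. In bulk libraries, fewer cells that express a gene and less RNA per cell cannot be told apart.

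**Figure D1:**
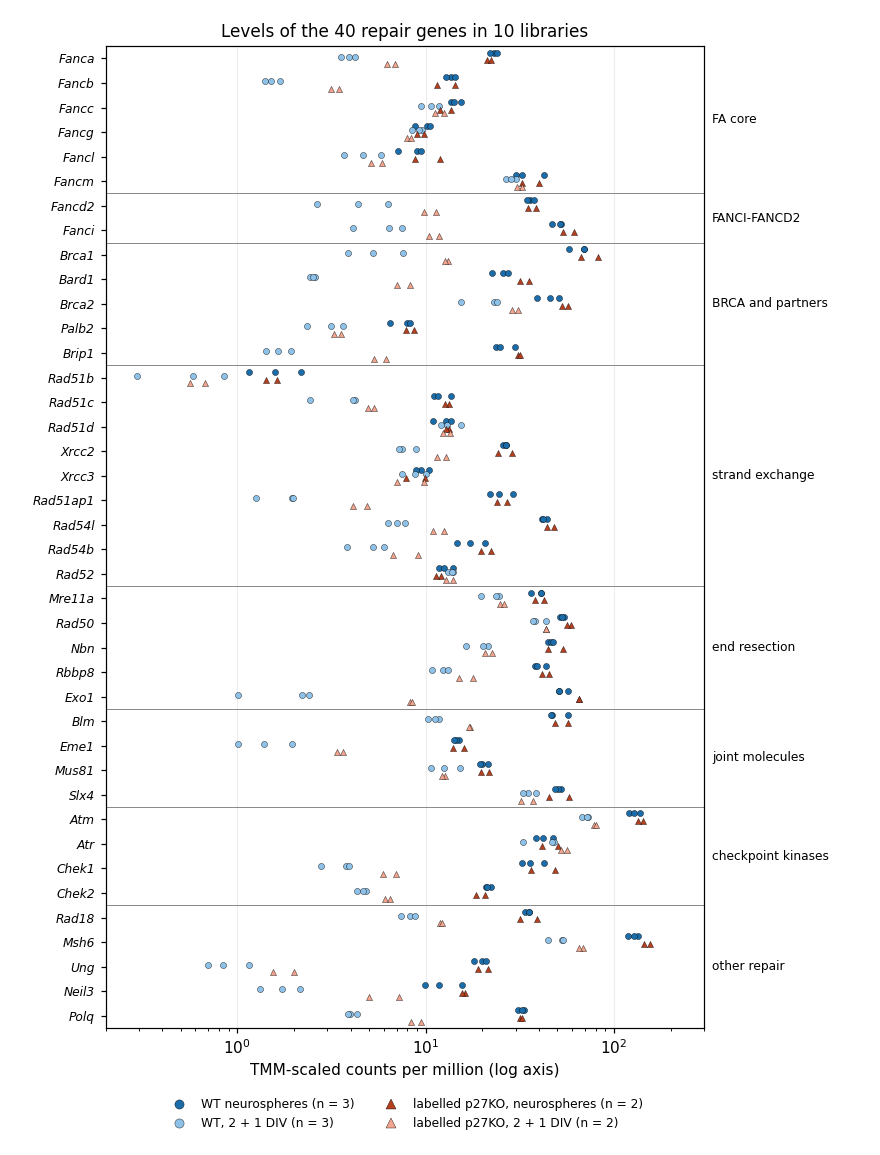
Each row is 1 of the 40 repair genes, grouped by role, and each point is 1 library; the horizontal axis gives TMM-scaled CPM on a log scale. Dark points (neurospheres) lie right of light points (2 + 1 DIV) for most genes, with Exo1 and Ung among the widest gaps, while Atr, Fancg, Rad51d and Rad52 overlap in WT.

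Genes of dividing cells moved in the same comparisons. A list of 12 of them (Mki67, Top2a, Ccna2, Ccnb1, Cdk1, Pcna, Mcm2, Mcm3, Mcm5, Mcm6, Rrm2 and Ccne1) fell in 12 of 12 members in each genotype. Their summed level went from between 3416 and 3763 CPM in WT neurospheres to between 248.7 and 380.6 CPM at 2 + 1 DIV, and from 4193 and 3863 CPM to 1032 and 926.4 CPM in the libraries labelled p27KO. Their median log2 fold change was -3.52 in WT and -2.46 in the libraries labelled p27KO. What part the share of dividing cells has in the repair genes' changes was not tested. The stage also differs in attachment to Matrigel, mitogens and serum, which cannot be told apart.

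Per kilobase of exon, the scale on which genes can be compared, levels in WT neurospheres were highest for Msh6, which recognises mismatched bases, at 29.2 CPM per kb. Nbn followed at 18.2, Atm at 12.4 and Rad50 at 9.84 CPM per kb. The lowest were Rad51b at 0.435 and Palb2 at 1.03 CPM per kb. At 2 + 1 DIV in WT, Msh6 stood at 11.6, Nbn at 7.64, Atm at 6.84 and Rad50 at 7.36 CPM per kb, while Exo1 was at 0.222 CPM per kb. Exon lengths are those of all annotated transcripts joined together, so a gene with many long transcripts has a lower value per kb.

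Of the Fanconi core complex, the ubiquitin ligase that acts on FANCD2 and FANCI, 4 of 6 members fell in WT and 3 of 6 in the libraries labelled p27KO, with median log2 fold changes of -0.64 and -0.56. Fancb stood at 13.6, 12.8 and 14.3 CPM in WT neurospheres and at 1.40, 1.68 and 1.505 CPM in WT cells at 2 + 1 DIV. Fancb in the libraries labelled p27KO stood at 14.2 and 11.5 CPM in neurospheres and at 3.15 and 3.48 CPM at 2 + 1 DIV. Fancb, a core scaffold encoded on the X chromosome, thus had no overlap between stages and fell in WT (log2 fold change -3.14 ± 0.15 SE, edgeR adjusted p = 1.72e-07) and in the libraries labelled p27KO (log2 fold change -1.96 ± 0.17 SE, edgeR adjusted p = 1.57e-05). Fanca stood at 23.1, 21.8 and 23.9 CPM in WT neurospheres and at 4.19, 3.56 and 3.94 CPM in WT cells at 2 + 1 DIV. Fanca in the libraries labelled p27KO stood at 21.2 and 22.2 CPM in neurospheres and at 6.86 and 6.25 CPM at 2 + 1 DIV. Fanca, a further core subunit, fell in both without overlap, with log2 fold changes of -2.55 ± 0.11 SE in WT and -1.72 ± 0.13 SE in those labelled p27KO. Fancg, which sits beside FANCA in the complex, differed least in WT. Fancg stood at 8.82, 10.1 and 10.48 CPM in WT neurospheres and at 9.53, 8.47 and 9.22 CPM in WT cells at 2 + 1 DIV. Fancg in the libraries labelled p27KO stood at 9.01 and 9.81 CPM in neurospheres and at 7.97 and 8.40 CPM at 2 + 1 DIV. The Fancg stages overlapped in WT (log2 fold change -0.11 ± 0.12 SE, edgeR adjusted p = 0.441), where the 95% interval of the log2 fold change was -0.38 to 0.16, and in the libraries labelled p27KO they did not overlap but did not pass (log2 fold change -0.20 ± 0.15 SE, edgeR adjusted p = 0.275). Fancm, the translocase that brings the complex to DNA, did not pass in WT (log2 fold change -0.30 ± 0.14 SE, edgeR adjusted p = 0.0775). Fancl, the ligase subunit, fell in WT (log2 fold change -0.85 ± 0.21 SE, edgeR adjusted p = 0.00455). Fancc fell in WT (log2 fold change -0.43 ± 0.12 SE, edgeR adjusted p = 0.0105) but not in the libraries labelled p27KO (log2 fold change -0.10 ± 0.15 SE, edgeR adjusted p = 0.588), and the difference between these changes did not pass (interaction 0.33 ± 0.19 SE, edgeR adjusted p = 1.0). Of the 40 members, 17 share exon sequence with another annotated gene, mostly on the opposite strand, among them Fanca with Zfp276, Fancl with Vrk2, Rad54l with Lrrc41, Mre11a with Ankrd49 and Msh6 with Fbxo11. Whether the counting used strand is not given in the sources used here, so reads of such pairs may be mixed.

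Fancd2 and Fanci encode the pair that is clamped onto DNA once ubiquitinated. Fancd2 stood at 35.8, 34.4 and 37.4 CPM in WT neurospheres and at 6.29, 2.64 and 4.36 CPM in WT cells at 2 + 1 DIV. Fancd2 in the libraries labelled p27KO stood at 38.7 and 35.1 CPM in neurospheres and at 11.4 and 9.83 CPM at 2 + 1 DIV. Fancd2 fell in both genotypes with no overlap, to 12.3% of its level in WT and to 28.8% in the libraries labelled p27KO. Fanci stood at 47.0, 52.4 and 51.4 CPM in WT neurospheres and at 7.49, 4.11 and 6.37 CPM in WT cells at 2 + 1 DIV. Fanci in the libraries labelled p27KO stood at 61.6 and 53.8 CPM in neurospheres and at 10.4 and 11.7 CPM at 2 + 1 DIV. Fanci fell in WT (log2 fold change -3.07 ± 0.19 SE, edgeR adjusted p = 6.71e-07), and the WT change of Fancd2 stood near it (log2 fold change -3.02 ± 0.25 SE, edgeR adjusted p = 4.48e-06). Both spread more, relative to their level, at 2 + 1 DIV in WT than in neurospheres, and WT replicate 2 was the lowest for both. Exons of Fanci overlap Polg, and those of Fancd2 overlap Fancd2os, on the opposite strand.

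BRCA1 and its partner BARD1 form a ubiquitin ligase, BRIP1 is a helicase that binds BRCA1, and PALB2 joins BRCA1 to BRCA2. All 5 members of this role fell in both genotypes, with median log2 fold changes of -3.32 in WT and -2.13 in the libraries labelled p27KO. Brip1 stood at 23.7, 29.7 and 24.9 CPM in WT neurospheres and at 1.65, 1.43 and 1.93 CPM in WT cells at 2 + 1 DIV. Brip1 in the libraries labelled p27KO stood at 30.9 and 31.6 CPM in neurospheres and at 5.34 and 6.17 CPM at 2 + 1 DIV. Brip1 fell to 6.44% of its level in WT and to 18.5% in the libraries labelled p27KO, with no overlap. Bard1 stood at 22.4, 25.6 and 27.4 CPM in WT neurospheres and at 2.59, 2.43 and 2.51 CPM in WT cells at 2 + 1 DIV. Bard1 in the libraries labelled p27KO stood at 35.4 and 31.8 CPM in neurospheres and at 8.25 and 7.06 CPM at 2 + 1 DIV. Bard1 was left at 10.0% in WT and at 22.8% in the libraries labelled p27KO, and the WT libraries at 2 + 1 DIV were close to each other. Brca1 stood at 57.9, 69.6 and 69.0 CPM in WT neurospheres and at 7.59, 3.86 and 5.25 CPM in WT cells at 2 + 1 DIV. Brca1 in the libraries labelled p27KO stood at 81.6 and 66.4 CPM in neurospheres and at 13.2 and 12.6 CPM at 2 + 1 DIV. Brca1 fell in WT (log2 fold change -3.56 ± 0.21 SE, edgeR adjusted p = 6.63e-07) and in the libraries labelled p27KO (log2 fold change -2.52 ± 0.24 SE, edgeR adjusted p = 2.74e-05). Brca2, a mediator of strand exchange, fell least of this role. Brca2 stood at 38.9, 45.9 and 51.2 CPM in WT neurospheres and at 15.5, 23.1 and 24.0 CPM in WT cells at 2 + 1 DIV. Brca2 in the libraries labelled p27KO stood at 57.2 and 53.1 CPM in neurospheres and at 31.0 and 28.7 CPM at 2 + 1 DIV. Its stages did not overlap in either genotype (log2 fold change in WT -1.12 ± 0.16 SE, edgeR adjusted p = 0.000188). Palb2, the link between them, fell in WT (log2 fold change -1.31 ± 0.19 SE, edgeR adjusted p = 0.000184).

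Mediators of strand exchange include Xrcc2 and Xrcc3 with the genes they act beside, and the RAD54 translocases, which open the partner duplex. Of 9 members 8 were tested, and 5 of these fell in each genotype, with median log2 fold changes of -1.75 in WT and -1.23 in the libraries labelled p27KO. Rad51ap1 stood at 21.9, 24.5 and 29.0 CPM in WT neurospheres and at 1.95, 1.26 and 1.97 CPM in WT cells at 2 + 1 DIV. Rad51ap1 in the libraries labelled p27KO stood at 26.98 and 23.8 CPM in neurospheres and at 4.11 and 4.87 CPM at 2 + 1 DIV. Rad51ap1 fell furthest of this role, to 6.88% of its level in WT and 17.7% in the libraries labelled p27KO. Rad54l stood at 41.6, 44.3 and 41.9 CPM in WT neurospheres and at 7.04, 6.33 and 7.79 CPM in WT cells at 2 + 1 DIV. Rad54l in the libraries labelled p27KO stood at 43.9 and 48.2 CPM in neurospheres and at 10.9 and 12.6 CPM at 2 + 1 DIV. Rad54l, the main RAD54 gene, fell in both without overlap, with log2 fold changes of -2.59 ± 0.11 SE in WT and -1.97 ± 0.13 SE in those labelled p27KO. Xrcc2 stood at 25.7, 26.7 and 26.8 CPM in WT neurospheres and at 7.49, 8.85 and 7.18 CPM in WT cells at 2 + 1 DIV. Xrcc2 in the libraries labelled p27KO stood at 28.8 and 24.1 CPM in neurospheres and at 12.8 and 11.5 CPM at 2 + 1 DIV. Xrcc2 fell in WT (log2 fold change -1.75 ± 0.12 SE, edgeR adjusted p = 1.15e-06). Rad52, a mediator of strand annealing, differed least in WT. Rad52 stood at 13.9, 11.8 and 12.6 CPM in WT neurospheres and at 13.9, 13.1 and 13.9 CPM in WT cells at 2 + 1 DIV. Rad52 in the libraries labelled p27KO stood at 12.04 and 11.4 CPM in neurospheres and at 14.0 and 12.8 CPM at 2 + 1 DIV. The Rad52 stages overlapped in WT (log2 fold change 0.10 ± 0.10 SE, edgeR adjusted p = 0.418), with a 95% interval of the log2 fold change of -0.13 to 0.33, and in the libraries labelled p27KO they did not overlap but did not pass (log2 fold change 0.20 ± 0.13 SE, edgeR adjusted p = 0.205). Of the other members of this role, Rad51c fell in WT (log2 fold change -1.76 ± 0.20 SE, edgeR adjusted p = 3.79e-05), while Rad51d (log2 fold change 0.12 ± 0.13 SE, edgeR adjusted p = 0.449) and Xrcc3 (log2 fold change -0.13 ± 0.17 SE, edgeR adjusted p = 0.536) did not pass. Rad54b fell as well (log2 fold change -1.80 ± 0.20 SE, edgeR adjusted p = 3.11e-05), but shares exons with Fsbp on the same strand, so its reads could be split between them. Rad51b had too few counts for the filter, at 22, 40 and 47 counts in WT neurospheres, 17, 7 and 15 in WT cells at 2 + 1 DIV, 39 and 28 in neurospheres labelled p27KO and 14 and 15 in cells labelled p27KO at 2 + 1 DIV. Without a filter, its log2 fold change in WT was -1.59 ± 0.42 SE (edgeR adjusted p = 0.00407).

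End resection starts with the MRE11-RAD50-NBN complex and CtIP (Rbbp8), and long stretches are then removed by EXO1. All 5 members fell in both genotypes, with median log2 fold changes of -1.24 and -1.18. Exo1 stood at 51.0, 51.3 and 56.7 CPM in WT neurospheres and at 2.40, 1.01 and 2.20 CPM in WT cells at 2 + 1 DIV. Exo1 in the libraries labelled p27KO stood at 65.0 and 64.8 CPM in neurospheres and at 8.25 and 8.49 CPM at 2 + 1 DIV. Exo1 (chr1:175880581-175913489, plus strand, GRCm38), the long-range exonuclease, had no overlap between stages and was left at 3.52% of its level in WT and at 12.9% in the libraries labelled p27KO. Rad50 stood at 54.1, 51.8 and 52.8 CPM in WT neurospheres and at 38.0, 43.4 and 37.3 CPM in WT cells at 2 + 1 DIV. Rad50 in the libraries labelled p27KO stood at 59.0 and 56.0 CPM in neurospheres and at 43.7 and 43.7 CPM at 2 + 1 DIV. Rad50, the ATPase of the complex, fell least, yet its stages did not overlap in either genotype (log2 fold change -0.41 ± 0.08 SE, edgeR adjusted p = 0.00106). Mre11a, the nuclease of that complex, had a log2 fold change of -0.80 ± 0.11 SE in WT, Nbn one of -1.24 ± 0.12 SE and Rbbp8 one of -1.73 ± 0.11 SE, all past the threshold.

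Joint molecules left by recombination are dissolved by the BLM helicase or cut by the nucleases MUS81-EME1 and SLX1, the latter held by the SLX4 scaffold. All 4 members fell in both genotypes, with median log2 fold changes of -1.41 and -1.17. Eme1 stood at 15.1, 14.5 and 14.1 CPM in WT neurospheres and at 1.95, 1.01 and 1.39 CPM in WT cells at 2 + 1 DIV. Eme1 in the libraries labelled p27KO stood at 14.0 and 16.01 CPM in neurospheres and at 3.39 and 3.62 CPM at 2 + 1 DIV. Eme1 fell most, to 9.90% of its level in WT and to 23.4% in the libraries labelled p27KO. Blm stood at 46.7, 46.0 and 56.7 CPM in WT neurospheres and at 10.3, 11.8 and 11.2 CPM in WT cells at 2 + 1 DIV. Blm in the libraries labelled p27KO stood at 56.7 and 48.5 CPM in neurospheres and at 17.3 and 17.0 CPM at 2 + 1 DIV. Blm was left at 22.3% and 32.6% in these comparisons, with no overlap between stages. Slx4 stood at 52.0, 50.3 and 48.5 CPM in WT neurospheres and at 38.3, 35.0 and 32.9 CPM in WT cells at 2 + 1 DIV. Slx4 in the libraries labelled p27KO stood at 45.2 and 57.3 CPM in neurospheres and at 32.2 and 37.0 CPM at 2 + 1 DIV. Slx4 fell least (log2 fold change -0.50 ± 0.11 SE, edgeR adjusted p = 0.00213). Mus81, whose protein works only as a dimer with an EME partner, fell in WT (log2 fold change -0.66 ± 0.13 SE, edgeR adjusted p = 0.00133). Exons of Eme1 overlap Lrrc59 and Mrpl27, and those of Mus81 overlap Efemp2, on the opposite strand.

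The checkpoint kinases ATM and ATR sense breaks and stalled forks and act through CHK2 and CHK1. Of the 4 members, 3 fell in both genotypes, with median log2 fold changes of -1.54 and -1.22 over the role. Chek1 stood at 32.6, 35.9 and 42.7 CPM in WT neurospheres and at 3.79, 2.77 and 3.90 CPM in WT cells at 2 + 1 DIV. Chek1 in the libraries labelled p27KO stood at 48.3 and 36.2 CPM in neurospheres and at 5.90 and 6.97 CPM at 2 + 1 DIV. Chek1, the effector of ATR, fell to 9.43% of its level in WT and to 15.2% in the libraries labelled p27KO. Atr stood at 42.0, 38.7 and 47.2 CPM in WT neurospheres and at 32.9, 47.7 and 46.7 CPM in WT cells at 2 + 1 DIV. Atr in the libraries labelled p27KO stood at 50.3 and 41.7 CPM in neurospheres and at 56.0 and 52.4 CPM at 2 + 1 DIV. Atr itself overlapped between stages in WT (log2 fold change -0.001 ± 0.15 SE, edgeR adjusted p = 0.994), and the 95% interval of its log2 fold change was -0.33 to 0.33. In the libraries labelled p27KO it was above the neurospheres in both libraries but did not pass (log2 fold change 0.24 ± 0.18 SE, edgeR adjusted p = 0.275). Chek2, the effector of ATM, fell in WT (log2 fold change -2.21 ± 0.10 SE, edgeR adjusted p = 1.52e-07), as did Atm (log2 fold change -0.86 ± 0.07 SE, edgeR adjusted p = 5.36e-06).

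The mixed set holds Ung, which removes uracil from DNA, Neil3, a glycosylase that also unhooks crosslinks, Polq, the polymerase of microhomology end joining, Rad18, the ligase that marks PCNA at stalled forks, and Msh6. All 5 fell in both genotypes, with median log2 fold changes of -2.86 and -1.54. Ung stood at 18.0, 20.0 and 20.8 CPM in WT neurospheres and at 0.699, 0.839 and 1.16 CPM in WT cells at 2 + 1 DIV. Ung in the libraries labelled p27KO stood at 21.4 and 18.9 CPM in neurospheres and at 1.55 and 2.01 CPM at 2 + 1 DIV. Ung was left at 4.67% of its level in WT and at 8.86% in the libraries labelled p27KO. Polq stood at 33.1, 31.1 and 32.5 CPM in WT neurospheres and at 4.34, 3.94 and 3.86 CPM in WT cells at 2 + 1 DIV. Polq in the libraries labelled p27KO stood at 31.7 and 32.5 CPM in neurospheres and at 9.41 and 8.31 CPM at 2 + 1 DIV. Polq fell to 12.6% in WT and to 27.7% in the libraries labelled p27KO, with no overlap and little spread. Neil3 stood at 9.97, 15.7 and 11.8 CPM in WT neurospheres and at 2.15, 1.72 and 1.31 CPM in WT cells at 2 + 1 DIV. Neil3 in the libraries labelled p27KO stood at 16.2 and 15.7 CPM in neurospheres and at 7.18 and 5.00 CPM at 2 + 1 DIV. Neil3 fell in WT (log2 fold change -2.86 ± 0.24 SE, edgeR adjusted p = 5.16e-06) and in the libraries labelled p27KO (log2 fold change -1.38 ± 0.27 SE, edgeR adjusted p = 0.00173). Rad18 stood at 33.8, 35.2 and 35.3 CPM in WT neurospheres and at 7.39, 8.22 and 8.80 CPM in WT cells at 2 + 1 DIV. Rad18 in the libraries labelled p27KO stood at 38.8 and 31.6 CPM in neurospheres and at 11.9 and 12.2 CPM at 2 + 1 DIV. Rad18 fell in WT (log2 fold change -2.09 ± 0.11 SE, edgeR adjusted p = 2.7e-07). Msh6 stood at 119, 134 and 128 CPM in WT neurospheres and at 44.3, 53.0 and 53.5 CPM in WT cells at 2 + 1 DIV. Msh6 in the libraries labelled p27KO stood at 155 and 145 CPM in neurospheres and at 68.2 and 64.8 CPM at 2 + 1 DIV. Msh6 fell least of this set but with no overlap (log2 fold change -1.33 ± 0.09 SE, edgeR adjusted p = 1.21e-06).

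**Figure D2:**
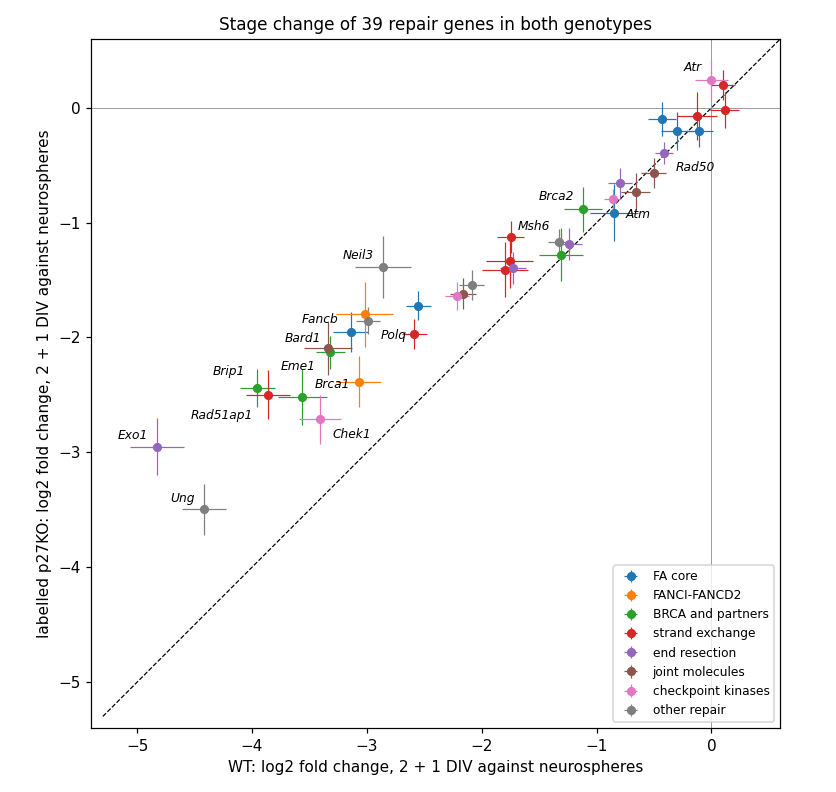
Each point is 1 of the 39 tested repair genes, coloured by role; the axes give the log2 fold change from neurospheres to 2 + 1 DIV in WT (horizontal) and in the libraries labelled p27KO (vertical), bars are SE and the dashed line marks equal change. Genes with large falls in WT, such as Exo1 and Brip1, lie above the line, while those with small changes lie near it, and 34 of 39 had a positive interaction.

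Whether the stage change depended on genotype was tested as an interaction. It passed for 3 of 39 members, Bard1, Brip1 and Polq, all with a smaller fall in the libraries labelled p27KO, against 0.389% of all genes in that direction. The interaction was 1.52 ± 0.22 SE for Brip1 (edgeR adjusted p = 0.023), 1.19 ± 0.18 SE for Bard1 (edgeR adjusted p = 0.0319) and 1.14 ± 0.15 SE for Polq (edgeR adjusted p = 0.023) on the log2 scale. Exo1 had a larger value that did not pass (interaction 1.88 ± 0.33 SE, edgeR adjusted p = 0.0512). No interaction was negative at an unadjusted p under 0.05 in edgeR or DESeq2, and the median over the members was 0.43, against -0.009 over all genes. Bard1 is annotated at chr1:71027498-71103146, Brip1 at chr11:86058138-86201193 and Polq at chr16:37011786-37095417 (GRCm38), and none of their exons overlap another gene. The count moved with single libraries, among all genes as among the members. Without any 1 of the 3 WT neurosphere libraries it was 0, and at most 13 of all genes passed, against 50 in the main fit. It was 2 without WT 2 + 1 DIV replicate 3 (38 of all genes in that direction). Without WT 2 + 1 DIV replicate 1 it was 7 (89 of all genes). Leaving out 1 library labelled p27KO leaves 1 in its group, so no count is given for it. DESeq2 called 9 members, and 153 of all genes had a positive interaction that passed. A block for the replicate number left 2 members, without Bard1, and 49 of all genes. Of the 12 genes of dividing cells, 4 passed (Mki67, Ccna2, Mcm5 and Rrm2), with a median of 1.26.

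At 2 + 1 DIV, 15 of 39 members were higher in the libraries labelled p27KO than in WT, against 1.91% of all genes, and none were lower, against 0.124%. No member was lower at an unadjusted p under 0.05 in edgeR or DESeq2. The 15 were Fanca, Fancb, Fancd2, Brca1, Bard1, Brip1, Xrcc2, Rad51ap1, Rad54l, Exo1, Blm, Eme1, Rad18, Neil3 and Polq. They came from 7 of the 8 roles, the checkpoint kinases being the one without a member. The median log2 difference was 0.53 over the 39 members and -0.015 over all genes. Exo1 differed most, 4.49-fold (log2 difference 2.17 ± 0.25 SE, edgeR adjusted p = 0.00173). Neil3 was 3.55-fold higher (log2 difference 1.83 ± 0.26 SE, edgeR adjusted p = 0.00567), Brip1 3.43-fold (log2 difference 1.78 ± 0.16 SE, edgeR adjusted p = 0.000658) and Bard1 3.04-fold (log2 difference 1.61 ± 0.13 SE, edgeR adjusted p = 0.000541). Polq was 2.19-fold higher (log2 difference 1.13 ± 0.11 SE, edgeR adjusted p = 0.000754). The smallest difference among the 15 was that of Rad18 (log2 difference 0.56 ± 0.12 SE, edgeR adjusted p = 0.0481). By library, none of the 15 overlapped between genotypes at this stage, but they were chosen by a test that used these same libraries. Some members that did not pass, such as Rad50 and Atm, did not overlap either. The share of all genes without overlap was not counted.

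The other members tested did not pass at 2 + 1 DIV. Brca2 differed by 0.52 ± 0.18 SE on the log2 scale (95% interval 0.11 to 0.92), Fanci by 0.88 ± 0.20 SE (0.43 to 1.34), Chek1 by 0.88 ± 0.20 SE (0.43 to 1.33) and Ung by 0.96 ± 0.22 SE (0.46 to 1.47). For Slx4 the interval was -0.30 to 0.24 and for Rad52 -0.28 to 0.24. Against their own neurospheres, the 32 members that fell in the libraries labelled p27KO stood between 8.86% (Ung) and 76.2% (Rad50) of the neurosphere level. In the same comparison 10 of the 12 genes of dividing cells were higher in the libraries labelled p27KO, with a median log2 difference of 1.45, and what part this has in the repair genes' difference was not tested. Fitted on the 5 libraries at this stage alone, 1 of the 15 passed, Bard1, and 36 of all genes were higher, against 246 in the main fit. The count was 10 without WT 2 + 1 DIV replicate 3, where 248 of all genes were higher. A block for the replicate number again gave 15, without Xrcc2 and Rad18 and with Ung and Chek1, and 352 of all genes were higher. Leaving out 1 library labelled p27KO leaves 1 in its group, so no count is given for it. Over the 10 fits that left out 1 library, the log2 difference stayed between 1.49 and 1.71 for Bard1 and 1.67 and 1.90 for Brip1. For Exo1 it stayed between 1.865 and 2.37 and for Polq between 1.04 and 1.22. This comparison and the interaction share the libraries at 2 + 1 DIV and are not independent.

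**Figure D3:**
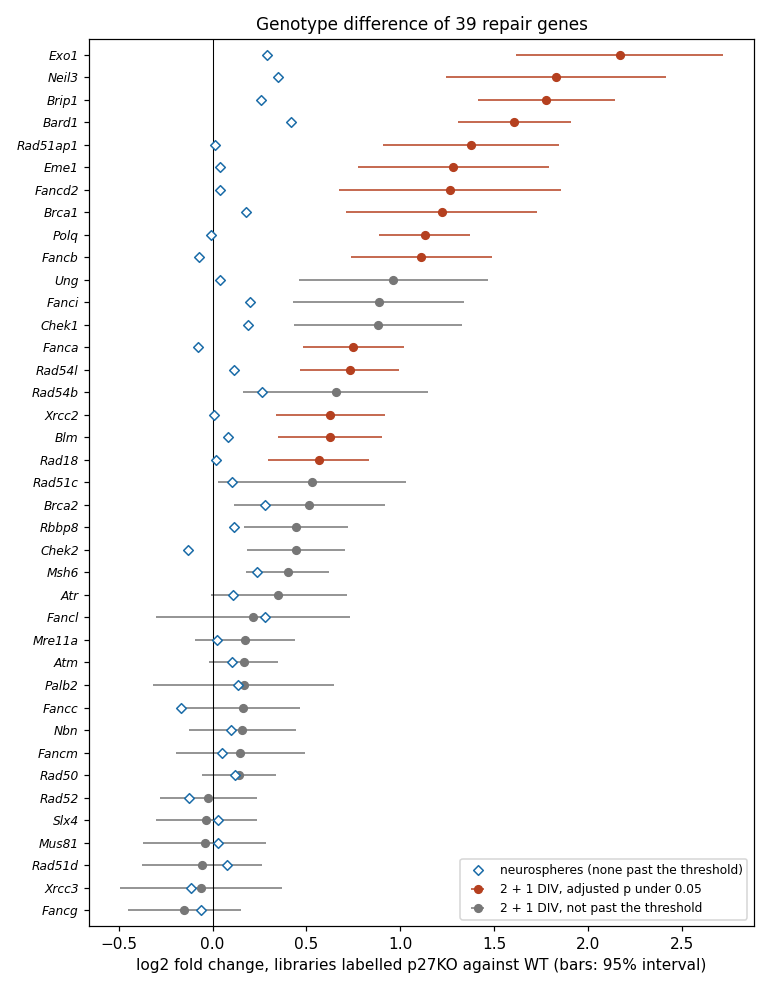
Rows are the 39 tested repair genes, ordered by the difference at 2 + 1 DIV; the horizontal axis is the log2 fold change of libraries labelled p27KO against WT, with filled points and 95% intervals at 2 + 1 DIV and open diamonds for neurospheres. Red points are the 15 genes past the threshold, from Exo1 at 2.17 to Rad18 at 0.56, and the diamonds lie between -0.17 and 0.42.

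In neurospheres no member passed the genotype comparison, and of all genes 0.0156% passed in either direction. At an unadjusted p under 0.05, 2 members were higher and none lower in edgeR, and DESeq2 likewise gave 2 and 0, with 0 after adjustment. The median log2 difference was 0.08, against -0.004 over all genes, and values ran from -0.17 for Fancc to 0.42 for Bard1. The 95% interval for Bard1 was 0.15 to 0.69, for Exo1 -0.17 to 0.75, for Brip1 -0.05 to 0.57 and for Polq -0.23 to 0.22. In both stages the WT libraries and those labelled p27KO also differ in Xist, as given above.

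Other genes of the same pathways gave a wider mix. Of 30 further recombination and Fanconi genes 21 fell and 3 rose in WT, with a median log2 fold change of -0.71. Rmi2, a partner of BLM, had a log2 fold change of -5.08 ± 0.36 SE and Dna2, a resection nuclease, one of -3.18 ± 0.13 SE. Of 20 damage signalling genes 13 fell and 2 rose, with Clspn, the mediator between ATR and CHK1, falling most (log2 fold change -4.07 ± 0.12 SE, edgeR adjusted p = 2.86e-08), followed by Timeless at -3.13 ± 0.14 SE and Wee1 at -2.51 ± 0.13 SE. Clspn passed the interaction as well (interaction 1.38 ± 0.17 SE, edgeR adjusted p = 0.023).

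The lists of other repair pathways hold none of the 40 members, so that Msh6, Ung, Neil3 and Polq, which also belong to these pathways and fell, are not in their counts. Of 9 end-joining genes 2 fell and 2 rose in WT, with a median of 0.10. Dclre1c, the Artemis nuclease, rose (log2 fold change 1.26 ± 0.13 SE, edgeR adjusted p = 1.62e-05), as did Prkdc, the DNA-PK catalytic subunit (log2 fold change 0.84 ± 0.10 SE, edgeR adjusted p = 5.68e-05), while Xrcc6, which encodes Ku70, fell (log2 fold change -0.86 ± 0.12 SE, edgeR adjusted p = 0.00017). Nucleotide excision repair had 6 of 14 lower and 5 higher, with a median of -0.10. Ddb2, which recognises UV lesions, rose with a log2 fold change of 1.46 ± 0.12 SE, and Uvssa rose with 1.33 ± 0.09 SE. Mismatch repair had 4 of 6 lower and 1 higher (median -0.35), with Mlh3 at 0.76 ± 0.14 SE, Pms2 at -0.63 ± 0.17 SE and Pms1 at -0.50 ± 0.18 SE. Base excision repair had 7 of 14 lower and 2 higher (median -0.55), with Mutyh at -1.54 ± 0.25 SE, Parp1 at -1.31 ± 0.11 SE and Xrcc1 at -1.22 ± 0.11 SE. These counts can be read against the 33.9% of all genes that fell and the 33.5% that rose, and no test between the lists was made. The genotype difference at 2 + 1 DIV passed for 5 of the 30 further recombination genes, 4 of the 20 signalling genes and 1 of the 14 nucleotide excision genes, Ercc5 (log2 difference 0.79 ± 0.14 SE, edgeR adjusted p = 0.0207).

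**Figure D4:**
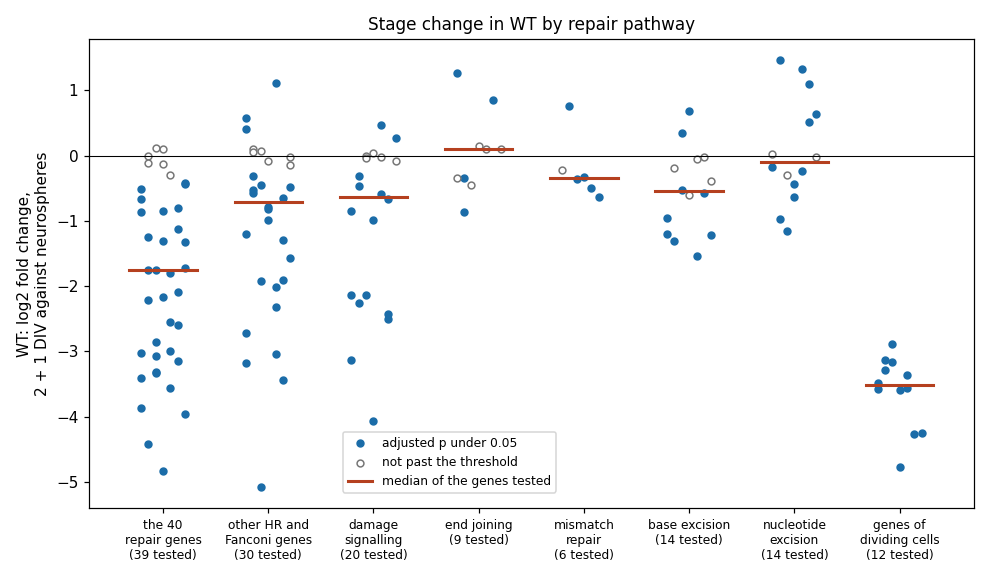
Each point is 1 tested gene; columns are the repair genes described here and 7 other gene lists that hold none of them, the vertical axis is the log2 fold change from neurospheres to 2 + 1 DIV in WT, filled points passed the threshold and red bars are medians. The medians lie at -1.76 for the repair genes described here, -3.52 for the genes of dividing cells and 0.10 for end joining.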

How the data were processed

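RNA-seq of 10 libraries was analysed: 3 of WT neurospheres, 3 of WT cells at 2 + 1 DIV and 2 of each stage labelled p27KO. The authors ran STAR against Ensembl mouse transcripts and RSEM for each gene's estimated count. Per the labels, FastQC, Trimmomatic, cutadapt and DESeq2 were also used, with GRCm38 (mm10). Estimated counts were deposited rounded to whole numbers, without normalisation, for 48795 genes. The deposited table holds 19190068 to 25291674 counts per library. Whether the spread between replicates or counting error limits the members was not compared gene by gene.

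Counts were analysed with edgeR 4.0.16 in R 4.3.3, and figures drawn in Python. A gene below 1 CPM in 4 or more of the 10 libraries was left out, as in the study's methods, and 12859 remained. Passing needs 1 CPM in at least 7 libraries, so that no gene passed through 1 stage or 1 genotype alone. After TMM scaling, all 4 groups entered 1 quasi-likelihood fit with robust dispersion. Tests were two-sided, with Benjamini-Hochberg adjustment over the 12859 genes, a threshold of 0.05 and 95% intervals without adjustment. The code was tested on simulated counts. Positions and exon lengths are from GENCODE M21, and promoters from RefSeq (GRCm38.p6).

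The members, their roles, the other lists and the motifs were chosen with earlier results of these data known. Values in every library are given for the members with the largest and the smallest change of each role in WT and for those that passed a genotype comparison or the interaction. From each other list, up to 3 genes with the largest changes past the threshold are named. Some results for single genes are not reported here. Genes named for a genotype difference or an interaction outside the members (Clspn, Ercc5 and those of dividing cells) were added after their values were seen. Deviations from the group mean correlated at r = 0.248, 0.301 and 0.395 between same-numbered WT libraries of the 2 stages. Different WT numbers gave -0.221 to -0.0874, but deviations cancel out within a group, so these values are not separate evidence. With 2 libraries per group labelled p27KO, equal numbers gave -0.138 and different numbers 0.138, mirror images that cannot decide pairing. The main fit used no pairing in either genotype, and the replicate block, an alternative, spanned all 4 groups. Alternatives were DESeq2 1.42.0, its size factors in edgeR, other filters, only the groups compared, the replicate number as a block and leaving out each library.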

Additional observations from a re-analysis of the deposited data

Results flagged for a closer look

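For 3 of the repair genes the change between stages differed between the genotypes by the interaction test of edgeR's quasi-likelihood model. Brip1 had an interaction of 1.52 ± 0.22 SE on the log2 scale (edgeR adjusted p = 0.023), Bard1 of 1.19 ± 0.18 SE (edgeR adjusted p = 0.0319) and Polq of 1.14 ± 0.15 SE (edgeR adjusted p = 0.023), each with the smaller fall in the libraries labelled p27KO. Brip1 and Polq kept this result in each fit that left out a WT 2 + 1 DIV library, and Bard1 in 2 of these. None of the 3 genes passed without a WT neurosphere library, where at most 13 of all 12859 genes had a positive interaction that passed. A fit without 1 library labelled p27KO leaves 1 in its group, so only the size of the interaction is used from it. Whether the result would hold without such a library is therefore not shown. The interaction stayed between 1.41 and 1.65 for Brip1 over the 10 fits that left out 1 library. It stayed between 1.07 and 1.29 for Bard1 and 1.04 and 1.22 for Polq. Groups of 2 or 3 libraries are too small for a search for single outlying libraries.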

How the results depend on the processing

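Counts of members that fell in WT stayed between 33 and 35 over all alternatives. In the libraries labelled p27KO they stayed between 32 and 33 where no library labelled p27KO was left out. A fit without 1 such library leaves 1 in its group, so its counts of genotype differences, interactions and p27KO stage changes are not given. Interactions passed for 3 members, for 5 with no filter, 9 with DESeq2 and 2 with the replicate block (without Bard1). With the p27KO numbers crossed in the block, a choice made after seeing the data, 1 passed. When 1 WT library was left out, 0 to 7 passed (0 without any WT neurosphere library). Over all genes, positive interactions passed for 50, for 78 with no filter, 153 with DESeq2, 49 with the replicate block and 41 with the crossed block. Leaving out 1 WT library gave 0 to 89 over all genes. Genotype differences at 2 + 1 DIV passed for 15 members, for 1 when only the groups compared were fitted, 20 with DESeq2 and 18 with no filter. The replicate block gave 15 (13 of them shared), the crossed block 17 and leaving out 1 WT library 10 to 14. Over all genes, 246 were higher, 36 with only the groups compared, 519 with DESeq2 and 302 with no filter. The replicate block gave 352, the crossed block 436 and leaving out 1 WT library 206 to 248 over all genes. The median stage change in the libraries labelled p27KO lay between -1.52 and -1.22 when 1 library was left out. Signs of stage changes turned for 4 members that did not pass there: Atr in WT was 0.002 with DESeq2 size factors and 0.002 with DESeq2, and -0.093 to 0.163 when 1 library was left out. In the libraries labelled p27KO, Rad51d was 0.014 with only the groups compared fitted and -0.088 to 0.044 when 1 library was left out, Xrcc3 -0.334 to 0.148 and Fancc -0.199 to 0.005. The replicate numbers share no stated source, and the block changed no stage call among the members. With 2 libraries per p27KO group, the number of libraries limits the genotype comparisons.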
